A study of Drosophila melanogaster with 8 samples.

Results

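Actin is encoded in Drosophila by 6 genes, Act5C, Act42A, Act57B, Act79B, Act87E and Act88F, and their RNA was examined in ovaries with and without the LEM domain protein Otefin. The annotation of the array gave a probe set of its own to 3 of the 6 genes, Act79B (1624830_at), Act87E (1636348_s_at) and Act88F (1626700_at), out of 18769 probe sets compared and 11982 named genes. All 3 are muscle actins. It gave none to Act57B, Act5C or Act42A, which were therefore not measured by a probe set of the annotation. The array also holds 8 control probe sets that carry the name of actin in their own identifiers, 4 named Act5C and 4 named ACTIN, and these are described separately. One of the ACTIN sets is listed as a synonym of Act42A in the RefSeq gene table.

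Actin subunits polymerise into filaments, and the proteins of the 6 genes are almost identical. Act5C and Act42A encode the cytoplasmic actins, which build the cortex, the ring canals and the nurse cell cables of the ovary as well as the cytoskeleton of other tissues. The other genes encode the actins of muscle thin filaments: Act88F that of the indirect flight muscle, Act79B that of tubular muscles such as those of the leg and the jump muscle, and Act57B and Act87E those of larval and other body muscles. The ovary has muscle of its own in the sheaths around the ovarioles and the whole organ, whereas flight muscle lies in the thorax. By the RefSeq table, Act5C is on the X chromosome, Act42A and Act57B on 2R, Act79B on 3L, and Act87E and Act88F on 3R.

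Each of 8 samples was 1 Affymetrix Drosophila 2.0 array of RNA from 100 pairs of ovaries of virgin females, 4 labelled null and 4 labelled het. Null females carried otefinPk together with Chk2P30 or Chk2P6 on one second chromosome and otefinG on the other, and het females carried the same otefinPk chromosome over the CyO balancer, so every female had 1 mutant copy of chk2, the checkpoint kinase gene. Replicates 1 and 2 of each label were Chk2P30 and replicates 3 and 4 Chk2P6, which gave 2 arrays in each of 4 groups. The labels put otefinPk beside Chk2P30, where the methods have oteB279G, and the females were 4 to 6 h old by the labels and 1 day old by the methods. A het female has a balancer in place of the otefinG chromosome, so the genotype and the balancer cannot be told apart for any gene, on chromosome 2 or elsewhere. The methods give 2 biological replicates for each genotype. The sources do not say that arrays of a label came from separate crosses, so the p-values measure the spread between these samples.

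The signal of the targeted gene did not separate the labels. The signal of Ote was 9.26, 7.27, 9.66 and 9.29 on the arrays labelled het 1 to 4, and 7.58, 7.48, 8.56 and 8.66 on those labelled null 1 to 4. The array labelled het 2 was the lowest of all. The arrays labelled null 3 and null 4 lay well above the other 2 null arrays, but below het 1, het 3 and het 4. Arrays are therefore named by their labels, and results that change without the arrays labelled het 2 and null 4 are given with and without them. Null 4 had the highest Ote of the null arrays, but null 3 was close to it, so Ote alone does not single out this pair. Array medians ran from 5.61 to 5.72, and correlations between arrays from 0.957 to 0.990. Germline genes were present throughout, with osk, which patterns the oocyte, between 13.29 and 13.56. Markers of other tissues differed between arrays. The mean signal of 6 salivary gland glue genes was 9.85 on het 1 and 9.14 on null 1, against 4.28 to 5.55 elsewhere. The mean of 4 male accessory gland genes was 8.51 on het 3 and 3.91 to 4.96 elsewhere, although the samples were ovaries. Midgut markers were higher in null on average, though the labels overlapped. All 6 measured midgut genes had a higher mean in null, by a median of 1.69. Of these, 3 digestive proteases, Jon44E, Jon25Biii and Jon65Aii, passed the study's thresholds, beside 0.149% of all probe sets. The mean of the 6 genes ran from 6.13 to 7.75 on het and from 6.97 to 10.15 on null. The trypsin genes alphaTry and betaTry were lower on null 1 and null 4 than on any het array.

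None of the 3 muscle actins passed a test between null and het. Values are log2 signals after RMA, 1 unit being a 2-fold difference, and they can be compared between arrays for 1 probe set but not between probe sets. Act79B was at 8.61, 9.64, 7.64 and 8.30 on het 1 to 4, and at 7.92, 9.28, 9.35 and 7.42 on null 1 to 4. Each label held arrays at both ends of this range, and the array labelled null 4 was the lowest. The null mean was 8.49 ± 0.97 and the het mean 8.55 ± 0.83 (SD, n = 4), a log2 difference of -0.05 ± 0.56 (SE, limma; 95% interval -1.36 to 1.25; unadjusted p = 0.925, adjusted p = 1.00). Without the arrays labelled het 2 and null 4 it was 0.67 ± 0.46 (unadjusted p = 0.198 by limma).

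Act87E, a body muscle actin, was at 11.22, 11.31, 11.61 and 11.58 on het 1 to 4, and at 11.73, 12.06, 12.12 and 10.32 on null 1 to 4. The arrays labelled null 1, null 2 and null 3 lay above every het array, and the array labelled null 4 lay below every other array. The null mean was 11.56 ± 0.84 and the het mean 11.43 ± 0.19 (SD, n = 4), a log2 difference of 0.13 ± 0.38 (SE, limma; 95% interval -0.76 to 1.01; unadjusted p = 0.751, adjusted p = 1.00). Without null 4 the difference was 0.54 ± 0.15 (SE, limma; unadjusted p = 0.010, adjusted p = 1.00), under the 2-fold threshold. Without both het 2 and null 4 it was 0.50 ± 0.17 (unadjusted p = 0.025 and adjusted p = 0.952 by limma). The fit without null 4 was singled out after its low value was seen, and leaving out that value narrows the null spread. These p-values are therefore no test of the label. On average, blood cell markers also had null 1, null 2 and null 3 above every het array and null 4 below them all, but the order within each label differed. The mean of 5 such markers was 6.35, 6.82, 6.78 and 6.45 on het 1 to 4, and 7.14, 7.07, 7.11 and 6.01 on null 1 to 4. All 5 were higher in null, by a median of 0.22, and 0 had an unadjusted p under 0.05 (limma). Single markers differed. Over the 8 arrays, Hml, a clotting gene of blood cells, had r = 0.84 with Act87E (0.65 without null 4). The phagocytic receptor gene eater had r = 0.79 (0.67 without null 4), Pxn 0.65, He 0.35 and NimC1 0.30. NimC1 was lowest on null 3, at 7.29, where Act87E was highest. The midgut genes alphaTry and betaTry had r = 0.62 and r = 0.73, and Jon65Aiii had 0.44. The midgut genes past the study's thresholds in null did not follow Act87E, with 0.18 for Jon44E, 0.10 for Jon25Biii and -0.07 for Jon65Aii. The part of these cells in the Act87E values was not tested.

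Act88F, the flight muscle actin, had the widest range of the 3. It was at 6.97, 10.21, 7.24 and 9.53 on het 1 to 4, and at 6.98, 7.91, 8.49 and 8.27 on null 1 to 4. The arrays labelled het 2 and het 4 were the highest, and the array labelled het 1 was the lowest, so the null arrays fell within the range of the het arrays. The null mean was 7.91 ± 0.66 and the het mean 8.49 ± 1.62 (SD, n = 4), a log2 difference of -0.58 ± 0.77 (SE, limma; 95% interval -2.35 to 1.20; unadjusted p = 0.475, adjusted p = 1.00). Without het 2 the difference was -0.0019 and without het 1 it was -1.08 ± 0.73 (unadjusted p = 0.183 by limma). Without both het 2 and null 4 it was -0.12 ± 0.77 (unadjusted p = 0.881, limma).

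**Figure D1:**
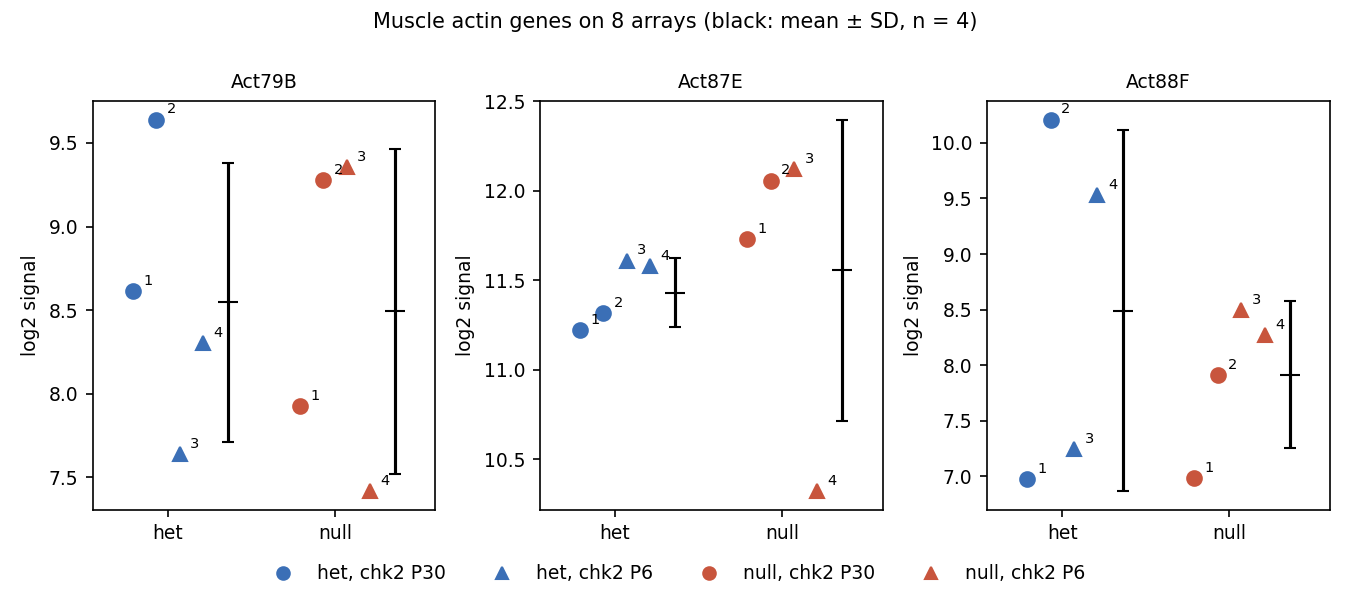
Log2 signal of Act79B, Act87E and Act88F (y axis, 1 panel per gene, axes not starting at 0) by label (x axis), 1 point per array with its replicate number, circles for Chk2P30 and triangles for Chk2P6, and the mean ± SD of 4 arrays in black. Act87E is lowest on null 4 at 10.32 and otherwise higher on null than on het arrays, and Act88F is highest on het 2 at 10.21 and het 4 at 9.53.

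Over the whole array, the thresholds of the study, at least 2-fold with an unadjusted p under 0.05, called 28 of 18769 probe sets between null and het, 0.149%, against 0 of the 3 muscle actins. At an unadjusted p under 0.05 alone, 423 probe sets were called (2.25%), and limma's adjusted p under 0.05 called 0, or 0%. Groups that did not overlap were found for 341 probe sets, 1.82%, and for 0 of the 3 actins. The exact two-sided permutation test over the 70 assignments of 8 arrays, which can give no p below 0.0286, gave p = 0.943 for Act79B, p = 0.857 for Act87E and p = 0.486 for Act88F. The muscle actins varied more than most probe sets. The SD over the 8 arrays was 1.19 for Act88F, 0.84 for Act79B and 0.57 for Act87E, above that of 98.3%, 95.4% and 85.7% of all probe sets, whose median SD was 0.25.

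Within each chk2 background, with 2 arrays per group, the differences of Act79B and Act87E ran opposite ways, and none of the 3 actins passed a test. In Chk2P30, null minus het was -0.53 ± 0.79 for Act79B, 0.63 ± 0.55 for Act87E and -1.14 ± 1.20 for Act88F (SE, limma). In Chk2P6 it was 0.42 ± 0.79 for Act79B, -0.37 ± 0.55 for Act87E and -0.01 ± 1.20 for Act88F. The study's thresholds called 0 of the 3 genes in either background, against 0.245% of all probe sets in Chk2P30 and 0.261% in Chk2P6. The test of the difference between backgrounds, the interaction, gave 0.94 for Act79B (95% interval -1.80 to 3.68, unadjusted p = 0.431), -1.0 for Act87E (-2.91 to 0.91, unadjusted p = 0.246) and 1.14 for Act88F (-3.04 to 5.32, unadjusted p = 0.528), all by limma, where 1.13% of probe sets had an unadjusted p under 0.05. Without het 2 and null 4 the interaction was 1.4 for Act79B, -0.15 for Act87E and -0.37 for Act88F. With 1 array left out it ran from -0.026 to 1.91 for Act79B and from -0.48 to 2.76 for Act88F, so its direction was not settled.

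These within-background values rested on single arrays. Without null 3, which leaves null 4 as the only null array of Chk2P6, Act87E was lower in null than in het by -1.27 ± 0.20 in that background (limma, unadjusted p = 0.0013, adjusted p = 0.288), with an interaction of -1.90 (unadjusted p = 0.00067). Without null 4 it was higher by 0.52 ± 0.20 (unadjusted p = 0.044, adjusted p = 0.982), close to the 0.63 of Chk2P30, and the interaction was -0.10 (unadjusted p = 0.704, limma). For Act88F in Chk2P30, null minus het was -2.76 ± 1.00 without het 1 (limma, unadjusted p = 0.042) and 0.47 ± 1.00 without het 2 (unadjusted p = 0.656). In each of these fits a lone array is assumed to vary like the other groups.

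Between the chk2 backgrounds the actins again did not pass a test. Act79B was at 8.86 ± 0.76 in Chk2P30 and 8.18 ± 0.87 in Chk2P6 (SD, n = 4), a difference of -0.68 ± 0.54 (SE, limma, additive fit; 95% interval -1.97 to 0.60; unadjusted p = 0.247, adjusted p = 0.650). The highest and the second highest array of Act79B were het 2 of Chk2P30 and null 3 of Chk2P6, so the backgrounds overlapped. Without null 3, left out after its value was seen, the difference was -1.17 ± 0.42 (unadjusted p = 0.031, limma), past the study's thresholds. Without both het 2 and null 4 it was 0.06. Act87E differed by -0.17 ± 0.40 (unadjusted p = 0.681) and Act88F by 0.36 ± 0.81 (unadjusted p = 0.667). Without het 2 and null 4 these were 0.30 ± 0.13 (unadjusted p = 0.074) and 1.23 ± 0.69 (unadjusted p = 0.136) by limma, and with 1 array left out Act88F ran from -0.17 to 1.12. Of all probe sets, 1.64% passed the study's thresholds between the backgrounds. The background coincides with the replicate numbers, so it cannot be told apart from any difference in preparation between replicates 1 and 2 and replicates 3 and 4.

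The control probe sets lie on a named transcript at its 3′ end, middle or 5′ end, as their identifiers say. Near-identical coding sequences mean that a set may also bind RNA of other actin genes. This limit holds for the annotated sets too, that of Act87E included. Which gene the ACTIN sets read is not stated apart from the Act42A synonym. The control sets were fitted together with all 18952 probe sets. The Act5C 3′ set was at 13.07, 12.79, 13.28 and 13.03 on het 1 to 4, and at 12.94, 13.31, 13.28 and 12.37 on null 1 to 4. It was lowest on the array labelled null 4, as was Act87E, and the labels otherwise overlapped, with a difference of -0.06 ± 0.22 (SE, limma; 95% interval -0.58 to 0.45; unadjusted p = 0.779). The ACTIN middle set listed under Act42A was at 9.672, 9.721, 9.621 and 9.888 on het 1 to 4, and at 10.175, 9.817, 9.998 and 9.753 on null 1 to 4. It was higher on the arrays labelled null 1 and null 3 than on any het array, with a difference of 0.21 ± 0.12 (95% interval -0.07 to 0.49; unadjusted p = 0.121, limma). None of the 8 control sets passed an unadjusted p under 0.05 between null and het or between the backgrounds.

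Cytoplasmic and muscle actins were set side by side as deviations from each probe set's own mean over the 8 arrays. The mean deviation of the Act5C 3′ set and the ACTIN middle set ran from -0.36 on null 4 to 0.22 on null 3, with an SD of 0.19 over the arrays. The mean deviation of the 3 muscle actins ran from -0.74 on null 4 to 0.98 on het 2, with an SD of 0.65. The width of the cytoplasmic side depended on the sets chosen. The SD of single sets was 0.32 for the Act5C 3′ set, 0.45 for the middle set, and 0.62 and 0.56 for the 5′ sets, whereas the 4 ACTIN sets had 0.13 to 0.31. The Act5C 5′ set had a range of 1.79, beside 1.80 for Act87E. With the mean of all 4 Act5C sets in place of the 3′ set, the cytoplasmic mean ran from -0.39 to 0.45, with an SD of 0.27. On null 4 both the muscle mean and the mean of the chosen cytoplasmic sets were at their lowest. On het 2 the muscle actins were at their highest while the cytoplasmic sets were at -0.17. Muscle minus cytoplasmic was -0.42, 1.15, -0.61 and 0.36 on het 1 to 4, and -0.66, 0.20, 0.36 and -0.38 on null 1 to 4. Its mean was 0.12 ± 0.80 over het and -0.12 ± 0.48 over null (SD, n = 4), and 0.06 ± 0.81 in Chk2P30 and -0.06 ± 0.50 in Chk2P6, each gap smaller than the spread within a group. No test was made of these averages.

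**Figure D2:**
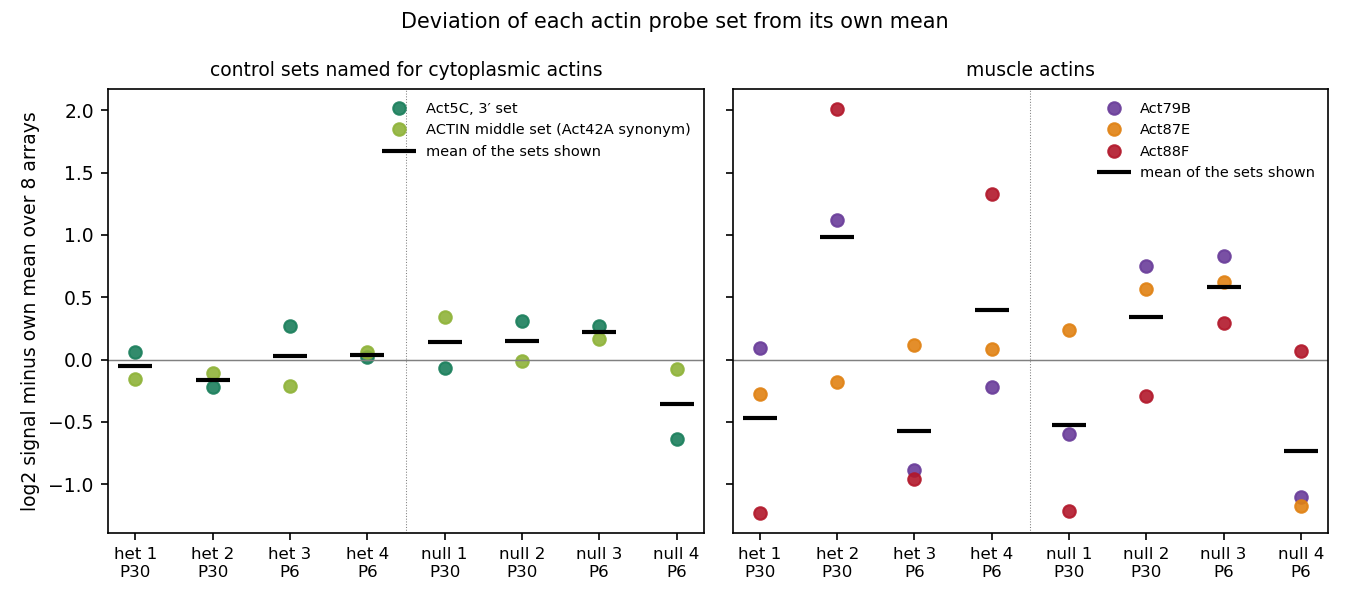
Log2 signal minus the probe set's own mean over 8 arrays (y axis) on each array with its chk2 background (x axis), for the control sets named for cytoplasmic actins (left) and the muscle actins (right), with black bars for the mean of the sets shown. The mean of these 2 cytoplasmic sets runs from -0.36 to 0.22, a range that is wider with the other Act5C sets, and the muscle mean runs from -0.74 on null 4 to 0.98 on het 2.

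The muscle actins were not seen to vary as a block, though 8 arrays cannot exclude that they partly vary together. Over the 8 arrays, Pearson's r was 0.52 between Act79B and Act87E (exact permutation p = 0.178, rho = 0.36 with p = 0.389), 0.48 between Act79B and Act88F (exact permutation p = 0.225, rho = 0.43 with p = 0.299) and -0.08 between Act87E and Act88F (exact permutation p = 0.857, rho = 0.00 with p = 1.00). Of the 10 pairs of these genes and the 2 cytoplasmic sets, Act87E and the Act5C 3′ set had the highest r, 0.89 (exact permutation p = 0.0062, adjusted over the 10 pairs 0.062; rho = 0.74, p = 0.046, adjusted 0.458). Without null 3 and null 4, the arrays farthest from the median of Act87E, r fell to 0.59, so the relation rested largely on those arrays. Binding of the same RNA by both sets was not tested. Adjusted p-values of the other 9 pairs were 0.710 or above.

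The genes whose signal followed each actin most closely were ranked by Pearson's r among 11981 other genes, as a description over 8 arrays. The first for Act87E was Gel, which encodes gelsolin, a protein that severs and caps actin filaments. Gel was at 10.35, 10.43, 10.56 and 10.75 on het 1 to 4, and at 10.84, 10.80, 11.10 and 9.60 on null 1 to 4. As with Act87E, null 1, null 2 and null 3 lay above every het array and null 4 lay below them all (r = 0.97, and 0.86 without null 3 and null 4). Cyp313b1, a cytochrome P450 gene (r = 0.97), and CG6415 (r = 0.96) came next. For Act79B they were CG14854, CG14406 and CG13962, each with r = 0.93. The signal of CG14854 was dim, between 3.98 and 4.60. For Act88F they were Mp (r = 0.91), the collagen gene multiplexin, with EbpII (r = 0.91) and mat (r = 0.91). Without het 2 and het 4, r was 0.73 for Mp, 0.50 for EbpII and 0.91 for mat.

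Other genes of the sarcomere, the contractile unit in which actin slides past myosin, were taken from a list of 26, of which 20 were measured. The genes closest to Act88F were fln and TpnC4. The gene fln encodes flightin, a thick filament protein of flight muscle, and TpnC4 encodes the flight muscle troponin C. The signal of fln was 5.02, 8.90, 5.84 and 6.57 on het 1 to 4, and 5.245, 5.002, 5.947 and 5.747 on null 1 to 4 (r = 0.86 with Act88F, and 0.79 without het 2). It was highest on het 2 and next on het 4, the order of Act88F. TpnC4 was at 9.10 on het 2 and between 6.62 and 7.41 on the other 7 arrays (r = 0.74 with Act88F, and 0.37 without het 2). It was named after its values were seen. TpnC41C, another troponin C gene, followed Act79B instead, with r = 0.81 against 0.08 for Act88F, and was at 10.24 on het 2 and 10.31 on null 2. Closeness to Act79B was not particular to muscle genes. Among the fat body markers, r with Act79B was 0.85 for Fbp2, 0.71 for Fbp1, 0.60 for Lsp2 and 0.03 for apolpp. Mlp84B, a muscle LIM protein of the Z-disc, followed Act87E, with r = 0.87, and was also named after its values were seen. Het 2, where Act88F, fln and TpnC4 peaked, was the array with the lowest Ote and also had the lowest follicle marker Vm26Aa, a vitelline membrane gene, at 8.72 against 9.54 to 12.63 elsewhere. The part of these in the actin values was not tested.

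**Figure D3:**
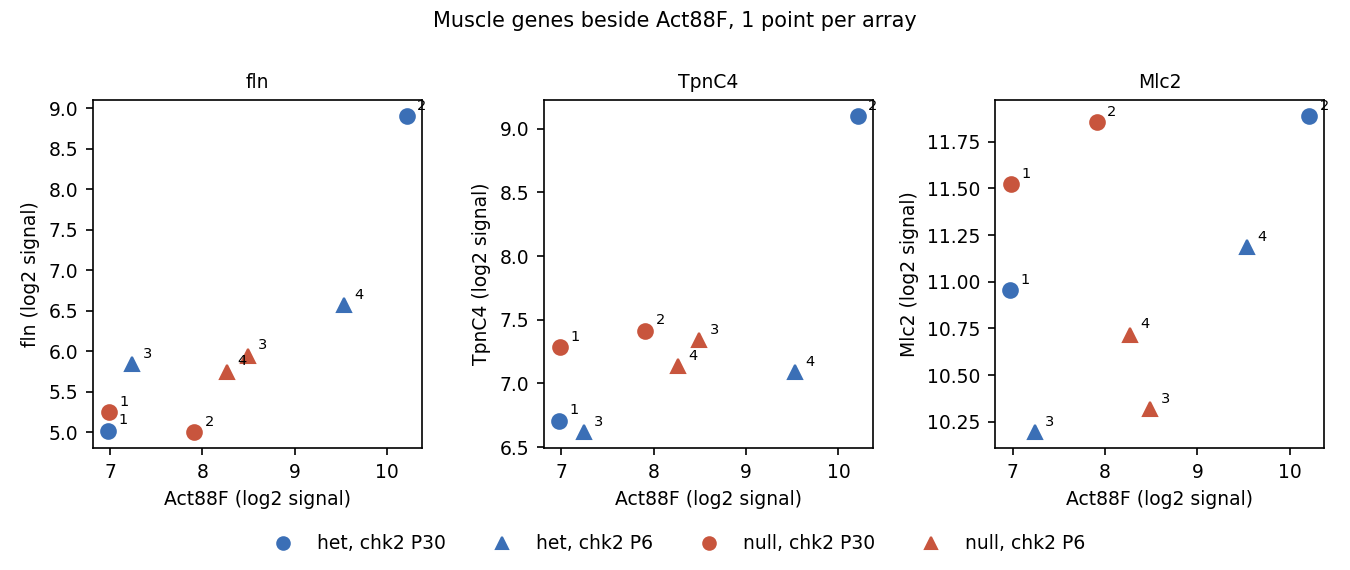
Log2 signal of fln, TpnC4 and Mlc2 (y axes) against that of Act88F (x axis), 1 point per array with its replicate number, coloured by label and shaped by chk2 background. The array labelled het 2 is highest for fln at 8.90 and TpnC4 at 9.10, and Mlc2, a myosin light chain, is similar on het 2 at 11.89 and null 2 at 11.86.

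Between null and het, 10 of the 20 sarcomere genes were higher and 10 lower in null, with a median difference of -0.03 against -0.01 over all probe sets, and 0 had an unadjusted p under 0.05 by limma. The lowest p in the list was that of Strn-Mlck, a kinase of muscle myosin, at 0.37 ± 0.25 (SE; unadjusted p = 0.173). The next was fln, at -1.10 ± 0.76 (unadjusted p = 0.185), followed by Mf, the myofilin gene, at 0.29, and sls, the titin-like gene, at -0.32. Without het 2, and without both het 2 and null 4, TpnC4 alone had an unadjusted p under 0.05 (limma). It was then higher in null, with null arrays at 7.14 to 7.41 against 6.71, 6.62 and 7.09 on het 1, 3 and 4. With all arrays its mean was 7.29 in null and 7.38 in het. Leaving out its highest value, on het 2, narrows the het spread, so this is no test of the label.

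Between the chk2 backgrounds, 14 of the 20 sarcomere genes were lower and 6 higher in Chk2P6, with a median difference of -0.35 against -0.02 over all probe sets. At an unadjusted p under 0.05, 7 were lower and 1 was higher, 40% of the list against 9.74% of all probe sets, where 4.43% were lower. None had an adjusted p under 0.05, with all adjusted p-values of these genes at 0.512 or above (limma). Mlc1, the essential myosin light chain, was lower by -0.67 ± 0.16 (unadjusted p = 0.0035) and was at 12.51, 12.98, 11.89 and 12.36 on het 1 to 4, and at 12.87, 13.04, 12.32 and 12.14 on null 1 to 4. Every Chk2P30 array was above every Chk2P6 array. Mlp60A, a muscle LIM protein, was lower by -0.48 ± 0.12 (unadjusted p = 0.0058), Mlc2, the regulatory light chain, by -0.95 ± 0.30 (unadjusted p = 0.016) and TpnC41C by -2.16 ± 0.69 (unadjusted p = 0.017), the 1 gene of the list past the 2-fold threshold. Actn, which encodes the Z-disc crosslinker alpha-actinin, also present outside muscle, was higher by 0.81 ± 0.33 (unadjusted p = 0.045). Leaving out het 2 took the 7 lower genes to 3, leaving out het 3 or null 2 took them to 4, and leaving out both het 2 and null 4 took them to 2, Mlc1 and Mlp60A. The genes higher in Chk2P6 at that p went the other way, from 1 to 5 without null 4 (beside 5 lower) and to 6 without both arrays, namely Actn, Mlp84B, Prm, Strn-Mlck, fln and sls. The excess of lower genes among those at an unadjusted p under 0.05 therefore depended on these arrays, while 12 of the 20 genes were lower at any p without both, with a median of -0.10.

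Several lists of markers of other cells also differed between the backgrounds. All 4 measured fat body genes were lower in Chk2P6, by a median of -0.86, and 3 had an unadjusted p under 0.05 by limma (75%, beside 9.74% of all probe sets). The fat body mean ran from 10.24 to 10.51 in Chk2P30 and from 9.24 to 10.02 in Chk2P6. All 7 measured follicle cell genes were higher in Chk2P6, by a median of 0.63, 3 of them at that p (42.9%). Their mean ran from 8.84 to 9.80 in Chk2P30 and from 9.62 to 10.39 in Chk2P6. All 6 glue genes were lower, by a median of -2.65, with a high mean on het 1 and null 1 alone. All 4 accessory gland genes were higher, by a median of 1.10, with a high mean on het 3 alone. Germline, midgut and blood cell markers went both ways, and all 3 neuron markers were lower, by a median of -0.06. In whole tissue, fewer muscle cells and less RNA per cell cannot be told apart, and the part of the markers in the sarcomere difference was not tested.

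**Figure D4:**
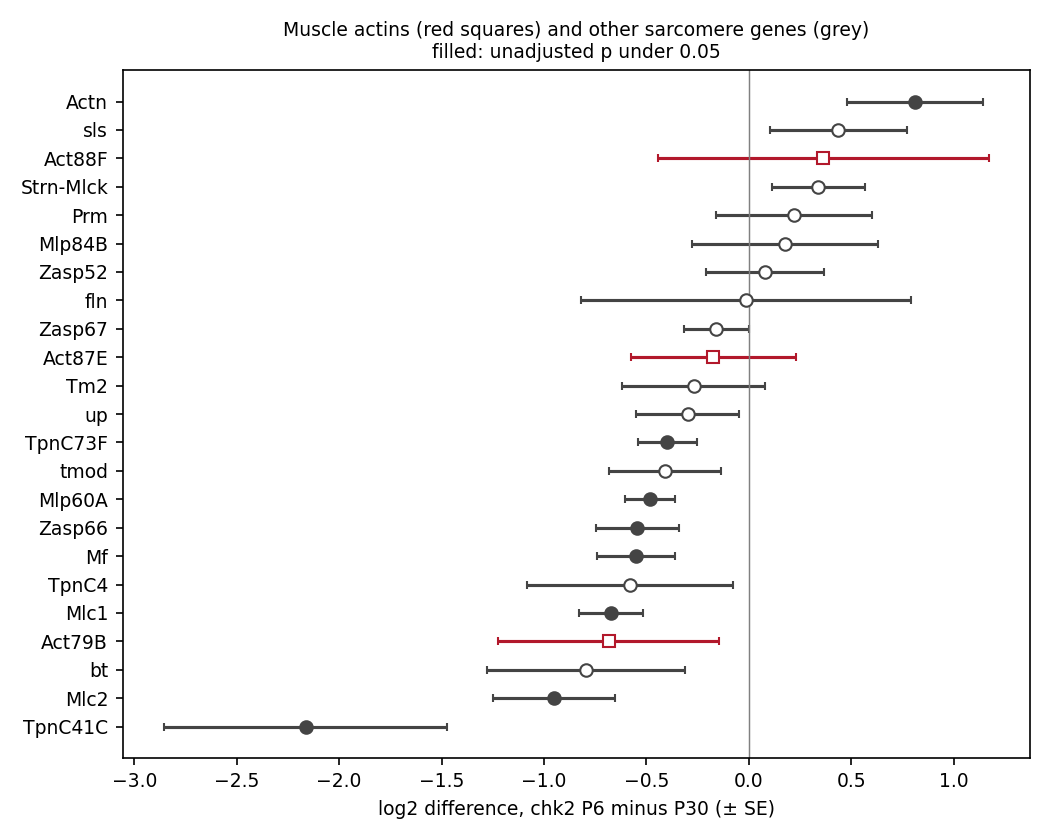
Log2 difference of Chk2P6 minus Chk2P30 (x axis, ± SE from limma's additive fit) for the 3 muscle actins (red squares) and 20 other sarcomere genes (grey circles), filled where the unadjusted p is under 0.05. TpnC41C is lowest at -2.16, and none of the 3 actins is filled.

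Of 31 genes that assemble, cap or bundle actin filaments, 26 were measured. In null against het, 11 were higher and 15 lower, and 1 had an unadjusted p under 0.05 (3.85% of the list, beside 2.25% of all probe sets). This was ena, which encodes Enabled, a protein that promotes elongation of actin filaments. Its signal was 9.86, 9.29, 9.68 and 9.77 on het 1 to 4, and 9.15, 8.74, 9.38 and 9.01 on null 1 to 4. Null 3 lay above the lowest het array, het 2, so the labels overlapped, with a difference of -0.58 ± 0.18 (SE, limma; unadjusted p = 0.011, adjusted p = 1.00). Between the backgrounds 4 were higher in Chk2P6 at an unadjusted p under 0.05 and 0 lower, 15.4% beside 9.74% of all probe sets. They were spir (0.81), a nucleator of the actin mesh of the oocyte, capu (0.72), the formin that acts with it, Fhos (0.52), another formin, and cher (0.97), which encodes filamin, a component of ring canals. The smallest adjusted p among them was 0.512. Of 9 actin-related protein genes 2 were measured, Arp8 and Arp10, and neither had an unadjusted p under 0.05 in either comparison.

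The signal at the 5′ end of Act5C relative to its 3′ end was higher on every array labelled null than on any labelled het. The 5′ set was at 9.57, 9.12, 9.26 and 9.27 on het 1 to 4, and at 9.58, 10.33, 10.74 and 8.95 on null 1 to 4, a difference of 0.60 ± 0.36 (SE, limma; unadjusted p = 0.140). The middle set differed by 0.04 ± 0.31 (unadjusted p = 0.896). The signal of the 5′ set minus that of the 3′ set, a quantity used to follow how far labelling reaches along a transcript, was -3.50, -3.67, -4.02 and -3.76 on het 1 to 4, and -3.36, -2.98, -2.54 and -3.42 on null 1 to 4. Every null array was above every het array, by 0.66 between the means (exact two-sided permutation p = 0.0286, the smallest these 8 arrays can give; chosen after its values were seen). It was 0.41 in Chk2P30 and 0.91 in Chk2P6. The same difference was taken for 6 pairs of control probe sets, and after adjustment over them p was 0.086. As the smallest p is 0.0286, an adjusted p under 0.05 needed at least 4 of the 6 pairs to reach it, so the adjusted value says little.

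The first pair of GAPDH sets, for a glycolytic enzyme, also separated the labels, but narrowly. It was at -1.98 ± 0.07 on het and -1.81 ± 0.18 on null (SD, n = 4; exact permutation p = 0.0286, adjusted 0.086). The highest het array was het 4 at -1.93 and the lowest null array null 2 at -1.91. Het 2 at -2.09 and null 3 at -1.55 lay far from the other arrays of their labels. The other pairs overlapped. Null minus het was 0.21 for ACTIN (exact permutation p = 0.229), 0.31 for eIF-4a, a translation factor (p = 0.229), 0.12 for the second GAPDH pair (p = 0.314) and -0.22 for 18S rRNA (p = 0.457). For Act5C the difference stayed between 0.48 and 0.78 with any 1 array left out, and was 0.80 without both het 2 and null 4. The probe sets of Act79B, Act87E and Act88F carry no such position in their names, and the part of this end difference in their values was not tested. The methods report a check of RNA quality but give no value per array, so the part of RNA quality was not tested either.

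**Figure D5:**
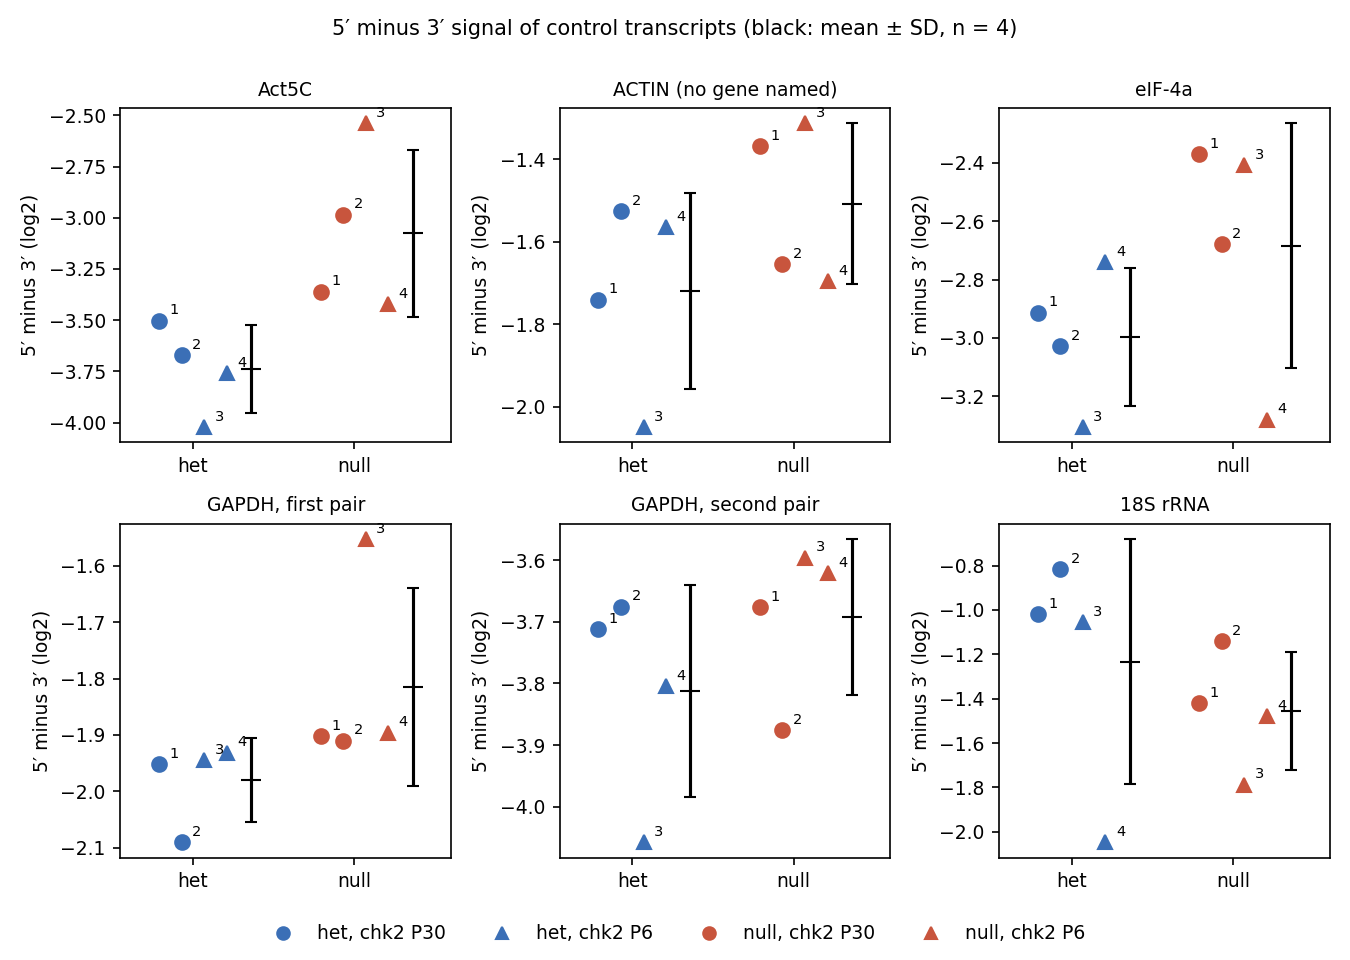
Signal of the 5′ set minus the 3′ set in log2 units (y axes, not starting at 0) by label (x axis) for 6 pairs of control probe sets, 1 point per array with its replicate number and the mean ± SD of 4 arrays in black. For Act5C the null arrays run from -3.42 to -2.54 and the het arrays from -4.02 to -3.50, without overlap.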

How the data were processed

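The deposited values are log2 signals that the authors made with RMA. The submitters' processing notes name Affymetrix Expression Console 1.4.1 as the tool, while Transcriptome Analysis Console is the one in the methods. The log base was read from the range, 2.37 to 14.5. No raw images were analysed, and the number of arrays limits the precision. Members were the probe sets annotated to 1 actin gene alone, with names updated through the RefSeq table. The annotation named 1 gene for 13647 probe sets, several for 402 and none for 4720. The 18769 probe sets that are not among the 183 controls were fitted with limma 3.58.1 in R 4.3.3, without a covariate for null against het, additively for the chk2 background and by 4 groups for the interaction, with Benjamini-Hochberg adjustment over all. The control actin sets came from a fit of all 18952, added after seeing the data. Permutation tests were exact.

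The members and gene lists were chosen with earlier results of these data known. Named genes were every member, the 3 genes with the highest r to each, and up to 4 per list with the smallest unadjusted p, except where the text says otherwise. Null and het share replicate numbers that no source ties to a batch, and no pairing was used. Alternatives were blocks, an unmoderated test, other centring, a filter on dim probe sets, other variance models, array weights, folds of 1.5 and 3, and arrays left out. The fits were tested on simulated data.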

Additional observations from a re-analysis of the deposited data

Results flagged for a closer look

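In groups of 4 arrays, an array was marked when its gap to the next, divided by the range of the group, exceeded Dixon's 95% critical value for 4 samples. This marked 7 of 88 groups. Chance marks about 1 in 20 only among independent items, whereas these share the same arrays and some were chosen for following an actin. The count was therefore not set against chance. The array labelled null 4 was far below the other null arrays for the ACTIN 3′ set, at 12.44, and for Cyp313b1, which followed Act87E, at 5.77. The array labelled het 2 was far above the other het arrays for CG14854, which followed Act79B, at 4.60, and far below them in the 5′ minus 3′ signal of the first GAPDH pair, at -2.09. The array labelled null 3 was far above the other null arrays in that GAPDH signal, at -1.55, and for Mp, which followed Act88F, at 9.10. The array labelled het 3 was far above the other het arrays for Arp10, at 8.96. Among the 3 muscle actins no array passed this limit.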

How the results depend on the processing

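None of the 3 muscle actins passed the study's thresholds between null and het under any alternative that was run, and the count stayed at 0 with a replicate block, with which 39 of all probe sets were called against 28 without it. The replicate block changed no other call of an actin (for Act88F the difference stayed at -0.58 on the log2 scale, unadjusted p = 0.369 by limma). Deviations of same-numbered arrays correlated at -0.0018, 0.38, 0.54 and -0.10 for replicates 1 to 4. With 1 array left out, the count of actins called ran from 0 to 1 between the backgrounds, from 0 to 1 within Chk2P30 and from 0 to 1 within Chk2P6. The count of sarcomere genes lower in Chk2P6 ran from 3 to 8, and was 2 without het 2 and null 4, while that of genes higher in Chk2P6 went from 1 to 5 without null 4 and to 6 without both. That of sarcomere genes between null and het ran from 0 to 1, and was 1 without those arrays.

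Of 318 repeats of 19 single-gene differences, 280 kept direction and call, 34 changed direction and 4 gained a call. With 1 array left out, null minus het ran from -0.36 to 0.31 for Act79B, from -0.061 to 0.54 for Act87E, from -0.18 to 0.14 for the Act5C 3′ set and from -0.13 to 0.33 for its middle set. Within Chk2P30 it ran from -1.20 to 0.15 for Act79B and from -2.76 to 0.47 for Act88F. Within Chk2P6 it ran from -0.55 to 1.38 for Act79B, from -1.27 to 0.52 for Act87E and from -1.15 to 1.14 for Act88F. The interaction ran from -0.026 to 1.91 for Act79B and from -0.48 to 2.76 for Act88F. Between the backgrounds, the difference ran from -0.43 to 0.29 for Act87E and from -0.17 to 1.12 for Act88F.

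Without both het 2 and null 4, null minus het was 0.67 for Act79B and 0.053 for the Act5C 3′ set, 0.52 for Act87E within Chk2P6, and 0.47 and 0.11 for Act88F within Chk2P30 and Chk2P6, with an interaction of -0.37. The background difference was then 0.056 for Act79B and 0.30 for Act87E. With array weights it was 0.19 for Act87E, and null minus het was -0.027 for the Act5C middle set. Within Chk2P6, Act88F was at 0.015 with median centring and 0.040 with cyclic loess. The cause of these changes was not tested beyond the arrays left out.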
